A study of Mus musculus with 12 samples.

Results

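Actins and the small proteins that hold actin monomers or turn over its filaments are encoded by a handful of abundant mRNAs, and 9 of them were followed here: Actb and Actg1 (cytoplasmic actins), Cfl1, Cfl2 and Dstn (the cofilin family), Pfn1 and Pfn2 (profilins), and Tmsb4x and Tmsb10 (beta-thymosins). They were chosen by gene symbol and joined to the counts by Ensembl identifier. All 9 of the 55573 genes counted were found, and all 9 were among the 17126 that passed the filter on low counts. The cells were hippocampal neurons taken from newborn mice of strain C57BL/6, pooled by litter and kept for 14 days in culture, with a drug against dividing cells added early, and all groups shared this background. In each RIP group the RNA was recovered from lysate with an antibody to endogenous YTHDF1, YTHDF2 or YTHDF3, and Input was total RNA of the lysate. There were 3 libraries in each of the 4 groups (Input, YTHDF1_RIP, YTHDF2_RIP and YTHDF3_RIP). A RIP with a nonspecific antibody was not analysed here, so every enrichment or depletion is relative to Input, and the 3 comparisons with Input share the same Input libraries.

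Actin subunits polymerize into the filaments that shape growth cones and dendritic spines. Cofilin and destrin sever and depolymerize filaments, profilin delivers subunits to growing ends, and beta-thymosins hold subunits in reserve. The YTHDF proteins bind N6-methyladenosine (m6A) in mRNA, which often falls near the stop codon and in the 3′UTR. Actb mRNA is a classic example of an mRNA carried into neurites, and its 3′UTR contains adenosines that were mutated in reporter experiments of the same study. Actb was a control there, and the study saw no sign that its 3′UTR reporter needed m6A to reach neurites.

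The windows below surround the Actb adenosines that those experiments replaced, since the study treated them as m6A sites. They were found by matching the mutagenesis oligonucleotides to the GENCODE M21 transcript, on the minus strand of GRCm38, and capitals mark the replaced adenosines. Window 1 lies at chr5:142903783-142903803, window 2 at chr5:142903707-142903730, window 3 at chr5:142903516-142903543 and window 4 at chr5:142903146-142903166.
Actb window 1: ttctaggcggActgttactga
Actb window 2: aaaataagagAcaAcattggcatg
Actb window 3: gtggctgaggActttgtAcattgttttg
Actb window 4: ctgtacactgActtgagacca
All the marked adenosines are in the 3′UTR. Window 4 also occurs letter for letter in a transcript of Lrrc58, a gene that carries a copy of Actb sequence and is taken up with Actb. Window 2 also occurs in transcripts of Gm4750 and Gm8464, and windows 1 and 3 were found in no other gene's transcript.

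The first coding bases are shown to let the relatives be compared. Capitals mark bases that differ from Actb, Cfl1, Pfn1 or Tmsb4x, in this order.
Actb: atggatgacgatatcgctgcgctggtcgtc
Actg1: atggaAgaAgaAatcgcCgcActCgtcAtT
Cfl1: atggcctctggtgtggctgtctctgatggt
Cfl2: atggcAtctggAgtTAcAgtGAAtgatgAA
Dstn: atggcctcAggAgtTCAGgtTGcGgatgAA
Pfn1: atggccgggtggaacgcctacatcgacagc
Pfn2: atggccggTtggCaGAGctacGtGgaTaAc
Tmsb4x: atgtctgacaaacccgatatggctgagatc
Tmsb10: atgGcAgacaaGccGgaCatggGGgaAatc
Over the whole coding region, Actb and Actg1 were identical at 88.7% of aligned positions, Tmsb4x and Tmsb10 at 70.4%, Cfl1 and Cfl2 at 71.9%, and Pfn1 and Pfn2 at 62.0%. Among these relatives, only Actb and Actg1 had 50-base words of their transcripts in common on the same strand, 1.60% of those of Actb.

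The genes lie apart in the genome (GRCm38). Actb is at chr5:142903115-142906754 and Actg1 at chr11:120345690-120348542, both on the minus strand. Cfl1 is at chr19:5490455-5495201 (plus strand), Cfl2 at chr12:54858809-54862877 (minus) and Dstn at chr2:143915320-143943324 (plus). The other 4 are on the minus strand, Pfn1 at chr11:70651850-70654644, Pfn2 at chr3:57841895-57848079, Tmsb4x at chrX:167207093-167209315 and Tmsb10 at chr6:72957347-72958748.

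Total counts per library lay between 6020072 and 38909592. Levels are in CPM, the count relative to the scaled library total, and between genes they are compared only per kilobase of exonic length. Only the sums over marker genes in this paragraph are relative to the library total without scaling. All 8 neuronal marker genes were detected in every group, with a summed level of 2723 to 4199 CPM in the Input libraries. Astrocyte markers summed to 287 to 2716 CPM in Input, and the 7 microglial markers to 2.82 to 7.15 CPM. Oligodendrocyte lineage markers summed to 23.6 to 173 CPM in Input, 135 to 369 with YTHDF1, 301 to 417 with YTHDF2 and 29.6 to 432 with YTHDF3. Fibroblast and mural markers summed to 3.22 to 62.9, 42.4 to 65.4, 91.2 to 135 and 4.02 to 141 CPM in the same order. Their part in the results was not tested. Replicate 2 of YTHDF1_RIP was the highest library of its group for 8 of the 9 members, all except Pfn2. Several results that rest on it are therefore given with and without it.

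In Input, Actb had the highest level per kilobase, 755 ± 107 CPM per kilobase (SD, n = 3), followed by Actg1 with 569 ± 90.2. Tmsb4x had 272 ± 37.1, Cfl1 147 ± 18.9, Dstn 106 ± 11.2 and Tmsb10 102 ± 44.4 CPM per kilobase. Pfn2 had 56.1 ± 6.50, Pfn1 23.6 ± 6.40 and Cfl2 13.9 ± 1.79 CPM per kilobase. The libraries of Dstn and Tmsb10 overlapped, as did those of Tmsb10 and Pfn2, and the other neighbors in this order did not. In YTHDF3_RIP the order at the top differed, with Actg1 (226 CPM per kilobase) above Actb (195), although the libraries of the pair overlapped.

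Together, the members took 0.426% to 0.581% of all counts in the Input libraries, 0.178%, 0.455% and 0.214% with YTHDF1, 0.151% to 0.213% with YTHDF2 and 0.153% to 0.185% with YTHDF3. Actb made up 60.2% to 67.9% of the members' counts with YTHDF1, beside 39.1% to 41.8% in Input.

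Most of these mRNAs were underrepresented in all the RIPs. Against Input, 7 of 9 were depleted with YTHDF1 (25.8% of all genes tested were), 7 of 9 with YTHDF2 (19.0% of all genes) and 9 of 9 with YTHDF3 (23.0% of all genes). Cfl2 was the 1 member enriched in a RIP, with YTHDF1, where 27.2% of all genes were enriched. Every RIP library lay below every Input library for 7 of 9 members with YTHDF1 (28.0% of all genes), 9 of 9 with YTHDF2 (27.5%) and 9 of 9 with YTHDF3 (29.1%), and every RIP library lay above for 1, 0 and 0 of 9 (27.9%, 25.3% and 26.6% of all genes). None of the 9 was enriched with YTHDF2 or YTHDF3, against 15.7% and 16.4% of all genes. The median log2 fold change of the members was -1.44, -1.58 and -1.95 for YTHDF1, YTHDF2 and YTHDF3, beside 0.02, 0.02 and 0.05 over all genes. A gene was called when it was at least 25% above or 20% below Input and its p from edgeR's quasi-likelihood test, adjusted over all genes tested, was no more than 0.05. Without replicate 2 of YTHDF1_RIP, YTHDF1 depletion on the log2 scale was larger for Actg1 (-1.35), Cfl1 (-1.88), Dstn (-2.57), Pfn1 (-2.41) and Tmsb4x (-4.47). A member that was not called is not shown to be unchanged.

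**Figure D1:**
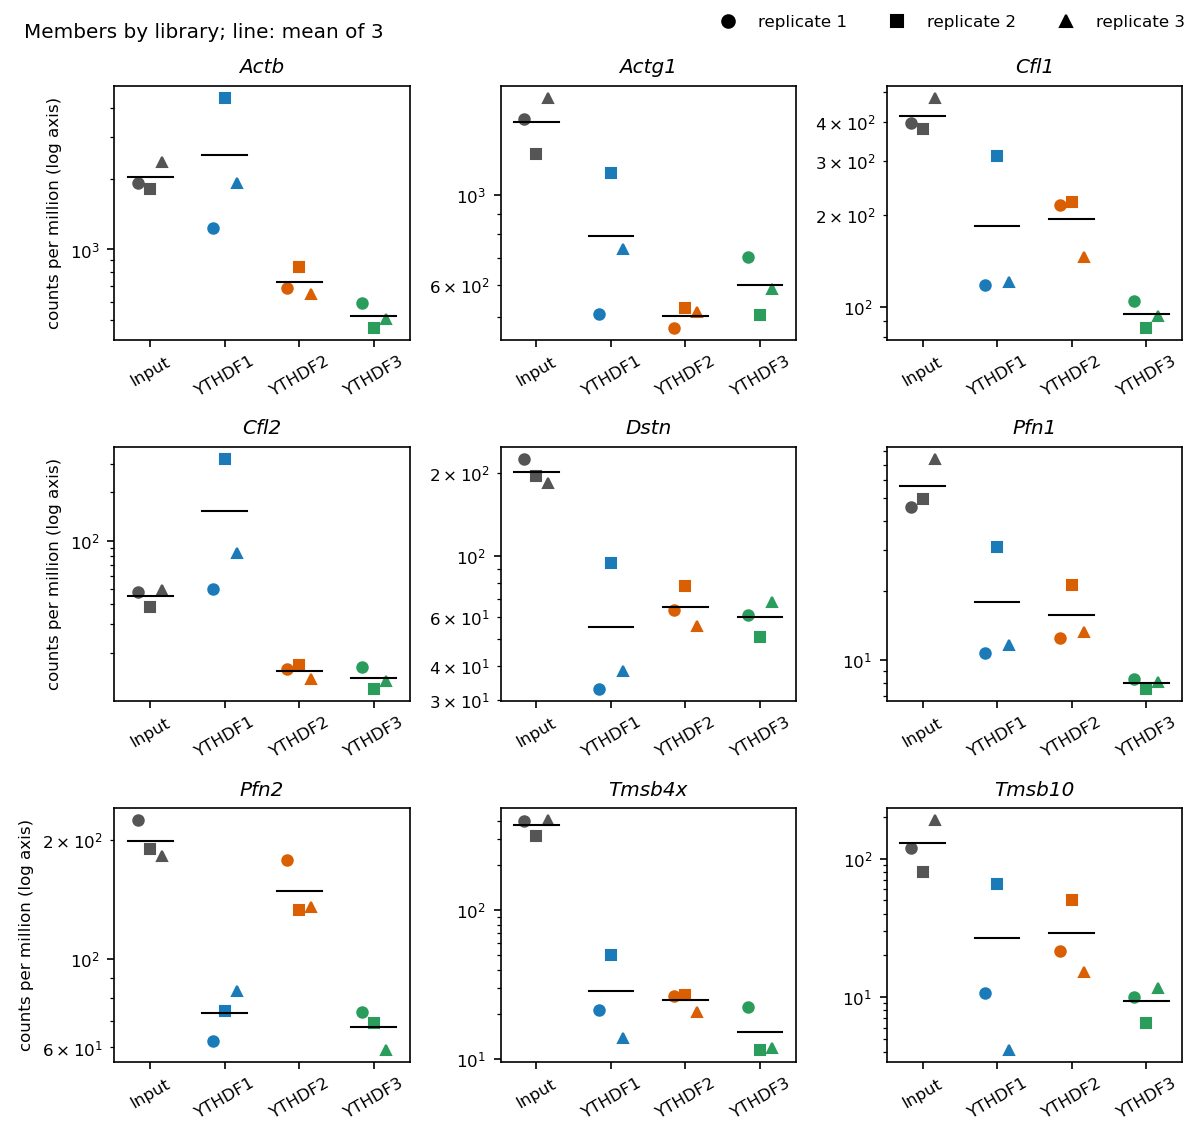
Level of each member in CPM (vertical log axis) in the 3 libraries of Input and of each RIP, with a line at the mean of 3 and a marker for each replicate number. Tmsb4x lies at 314 to 407 CPM in Input and at no more than 50.2 CPM in any RIP library, whereas Actb and Cfl2 in the YTHDF1 RIP reach 4418 and 325 CPM in replicate 2.

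The beta-thymosin mRNAs were the most depleted members. Tmsb4x, which encodes the main monomer-holding peptide of many cells, stood at 396, 314 and 407 CPM in the 3 Input libraries. It was at 21.6, 50.2 and 14.0 CPM with YTHDF1, at 26.7, 27.2 and 20.8 with YTHDF2, and at 22.5, 11.5 and 11.9 with YTHDF3. Every RIP library was far below every Input library. The log2 fold changes were -3.71 ± 0.45 (SE, adjusted p = 6.08e-05), -3.90 ± 0.46 (adjusted p = 0.000294) and -4.60 ± 0.47 (adjusted p = 4.78e-05), that is 13.0, 15.0 and 24.3 times lower than Input.

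Tmsb10, its relative with a similar role, varied more. It was at 120.0, 79.9 and 192 CPM in Input, and at 10.7, 65.4 and 4.13 CPM with YTHDF1. The RIP libraries all lay below Input, but replicate 2 of YTHDF1_RIP was close to the lowest Input library. With YTHDF2 the values were 21.4, 50.2 and 15.2 CPM, and with YTHDF3 10.03, 6.51 and 11.5 CPM. The depletion passed the test with YTHDF1 (log2 fold change -2.29 ± 0.82, adjusted p = 0.0345) and YTHDF3 (-3.80 ± 0.88, adjusted p = 0.00501), and had a log2 fold change of -2.18 ± 0.82 with YTHDF2 (adjusted p = 0.0594). The YTHDF2 value was -2.84 without YTHDF2_RIP replicate 2 (adjusted p = 0.0516). It was -1.82 without Input replicate 3 (adjusted p = 0.142) and -1.87 without YTHDF2_RIP replicate 3 (adjusted p = 0.170). In edgeR the YTHDF2 value was not called whichever of the compared libraries was left out, whereas DESeq2 called it (-2.18, adjusted p = 0.0122). Without replicate 2 of YTHDF1_RIP the YTHDF1 value was -4.25 (adjusted p = 0.000383), and without Input replicate 1 or 3 or YTHDF1_RIP replicate 1 or 3 the call was lost, with adjusted p up to 0.107. The YTHDF1 call was also lost when the trend with transcript length was removed (-1.76, adjusted p = 0.0607). Of the 50-base words of the Tmsb10 transcript, 43.5% also occur in transcripts of other genes, so its counts are uncertain.

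The profilin mRNAs were depleted with YTHDF1 and YTHDF3, and they differed with YTHDF2. Pfn1, the widely expressed profilin, was at 46.0, 49.7 and 74.3 CPM in Input. It was at 10.7, 31.0 and 11.6 CPM with YTHDF1, at 12.5, 21.2 and 13.3 with YTHDF2, and at 8.28, 7.51 and 8.07 with YTHDF3. No RIP library reached the Input range, and Pfn1 fell in each RIP, by 1.67 ± 0.39, 1.86 ± 0.39 and 2.83 ± 0.40 on the log2 scale (adjusted p = 0.00361, 0.00402 and 0.000251). Pfn2, the profilin typical of neurons, was at 225, 189 and 182 CPM in Input, 62.2, 74.3 and 83.1 with YTHDF1, 178, 133 and 135 with YTHDF2, and 73.9, 69.3 and 59.1 with YTHDF3. Its YTHDF2 libraries all lay just below Input, and those of the other RIPs lay far below. Pfn2 fell by 1.44 ± 0.19 with YTHDF1 (adjusted p = 9.22e-05) and by 1.56 ± 0.19 with YTHDF3 (adjusted p = 0.000101) on the log2 scale, and its log2 fold change with YTHDF2 was -0.42 ± 0.18 (adjusted p = 0.0991).

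Among the cofilins, Cfl1, the main cofilin outside muscle, and Dstn, a related depolymerizing factor, were depleted in all the RIPs. Cfl1 was at 396, 381 and 481 CPM in Input, 119, 312 and 121 with YTHDF1, 215, 219 and 146 with YTHDF2, and 105, 85.6 and 93.7 with YTHDF3. All RIP libraries lay below Input, the nearest being replicate 2 of YTHDF1_RIP. Its log2 fold changes were -1.19 ± 0.34 (YTHDF1, adjusted p = 0.0122), -1.12 ± 0.34 (YTHDF2, adjusted p = 0.0257) and -2.15 ± 0.35 (YTHDF3, adjusted p = 0.000635). Leaving out Input replicate 3 or YTHDF2_RIP replicate 1 or 3 ended the YTHDF2 call of Cfl1, with adjusted p up to 0.0938. Dstn was at 226, 195 and 185 CPM in Input, 33.0, 94.5 and 38.4 with YTHDF1, 63.6, 77.8 and 55.6 with YTHDF2, and 61.4, 50.8 and 68.4 with YTHDF3. The RIP libraries lay between 33.0 and 94.5 CPM, all below Input, and Dstn fell by 1.87 ± 0.35, 1.62 ± 0.34 and 1.75 ± 0.34 on the log2 scale (adjusted p = 0.000921, 0.00414 and 0.00200).

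Cfl2, the cofilin best known from muscle, went the other way with YTHDF1. It was at 48.0, 38.6 and 49.3 CPM in Input and at 50.03, 325 and 83.2 CPM with YTHDF1. The lowest YTHDF1 library was barely above the highest Input library, and replicate 2 was far above both others. The log2 fold change was 1.76 ± 0.53 (adjusted p = 0.0150). Without replicate 2 of YTHDF1_RIP it was 0.48 ± 0.22 (adjusted p = 0.0865), and the call was lost. The call was also lost without Input replicate 2 (1.65, adjusted p = 0.0540). With only the YTHDF1 and Input libraries in the fit, it was 1.61 (adjusted p = 0.0665). With YTHDF2 (15.7, 16.7 and 13.6 CPM) and YTHDF3 (16.2, 11.8 and 13.4 CPM) Cfl2 lay below Input in every library. It fell by 1.56 ± 0.53 and 1.71 ± 0.53 on the log2 scale (adjusted p = 0.0407 and 0.0230), and the YTHDF2 call was lost when any 1 of the 6 libraries compared was left out, with adjusted p up to 0.113. The YTHDF3 call was lost without Input replicate 3, or YTHDF3_RIP replicate 2 or 3, with adjusted p up to 0.0820.

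**Figure D2:**
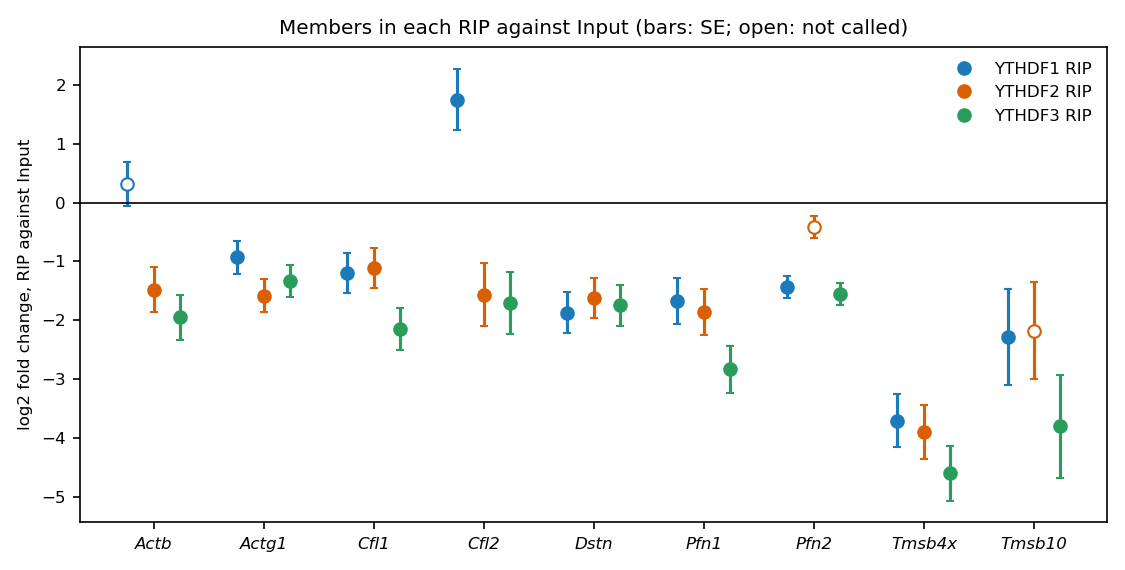
Log2 fold change of each member in each RIP against Input (vertical axis), with bars of 1 SE from the fit over 12 libraries and open points where the member was not called. Points lie below 0 for every member with YTHDF2 and YTHDF3, and only Actb (0.32) and Cfl2 (1.76) lie above 0 with YTHDF1, where Actb is at -0.14 when scaled by library size alone.

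The cytoplasmic actins differed from each other. Actg1 was at 1537, 1262 and 1740.0 CPM in Input and at 511, 1133 and 737 CPM with YTHDF1. It was at 471, 527 and 516 CPM with YTHDF2 and at 705, 506 and 587 CPM with YTHDF3. No RIP library overlapped Input. Its log2 fold changes were -0.93 ± 0.27, -1.58 ± 0.28 and -1.34 ± 0.28 for YTHDF1, YTHDF2 and YTHDF3 (adjusted p = 0.0137, 0.00153 and 0.00271). In every library the processed copy Gm12715 had between 61.8% and 67.0% of the count of Actg1, and 56.7% of the 50-base words of Actg1 occur in transcripts of other genes.

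Actb was at 1919.9, 1802 and 2345 CPM in Input, and at 1237, 4418 and 1922 CPM with YTHDF1. The YTHDF1 libraries lay on both sides of Input. With YTHDF2 it was at 688, 845 and 646 CPM and with YTHDF3 at 595, 464 and 509 CPM, all below Input. The log2 fold change was 0.32 ± 0.38 with YTHDF1 (adjusted p = 0.498), and Actb was depleted with YTHDF2 (-1.48 ± 0.38, adjusted p = 0.0119) and YTHDF3 (-1.95 ± 0.39, adjusted p = 0.00216). Without replicate 2 of YTHDF1_RIP, the YTHDF1 value was -0.43 ± 0.24 (adjusted p = 0.145).

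Counts of Actb may include reads from another gene. The counting assigned reads with several alignments to every gene they met, and Gm15725, a processed copy of Actb, lies inside the gene Lrrc58 on chromosome 16. Of the 50-base words of the Actb transcript, 9.57% occur on the same strand in Lrrc58 transcripts and 6.73% in Gm15725. In the other direction, 12.1% of the words of Gm15725 occur in Actb.

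Lrrc58 was at 291, 380.1 and 393 CPM in Input and at 1746, 5615 and 2390.2 CPM with YTHDF1. Replicate 2 was its highest YTHDF1 library, as for Actb and most other members. Lrrc58 was enriched with YTHDF1 (log2 fold change 3.20 ± 0.40, adjusted p = 6.93e-05), as was Gm15725 (2.66 ± 0.34, adjusted p = 7.75e-05). Over the 12 libraries, Pearson's r of log2 CPM was 0.50 between Actb and Lrrc58 and 0.55 between Actb and Gm15725. With every read counted for Gm15725 taken off Actb, a setting chosen after seeing the data that also takes off reads counted for Gm15725 alone and leaves reads shared with the rest of Lrrc58, the log2 fold change of Actb with YTHDF1 turned to -0.45 ± 0.49 (adjusted p = 0.463). Without replicate 2 of YTHDF1_RIP as well, it was -1.34 ± 0.39 (adjusted p = 0.0143). With all libraries it was -1.61 ± 0.50 with YTHDF2 (adjusted p = 0.0263) and -2.82 ± 0.52 with YTHDF3 (adjusted p = 0.00133). Gm15725 had 8.04% to 10.7% of the count of Actb in Input. It had 43.3% to 59.7% with YTHDF1, 13.6% to 20.5% with YTHDF2 and 37.1% to 67.1% with YTHDF3. Taking off its reads could therefore only lower Actb in each RIP against Input, and no depletion is read from this setting. How many of the reads of Actb came from Lrrc58 was not tested.

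**Figure D3:**
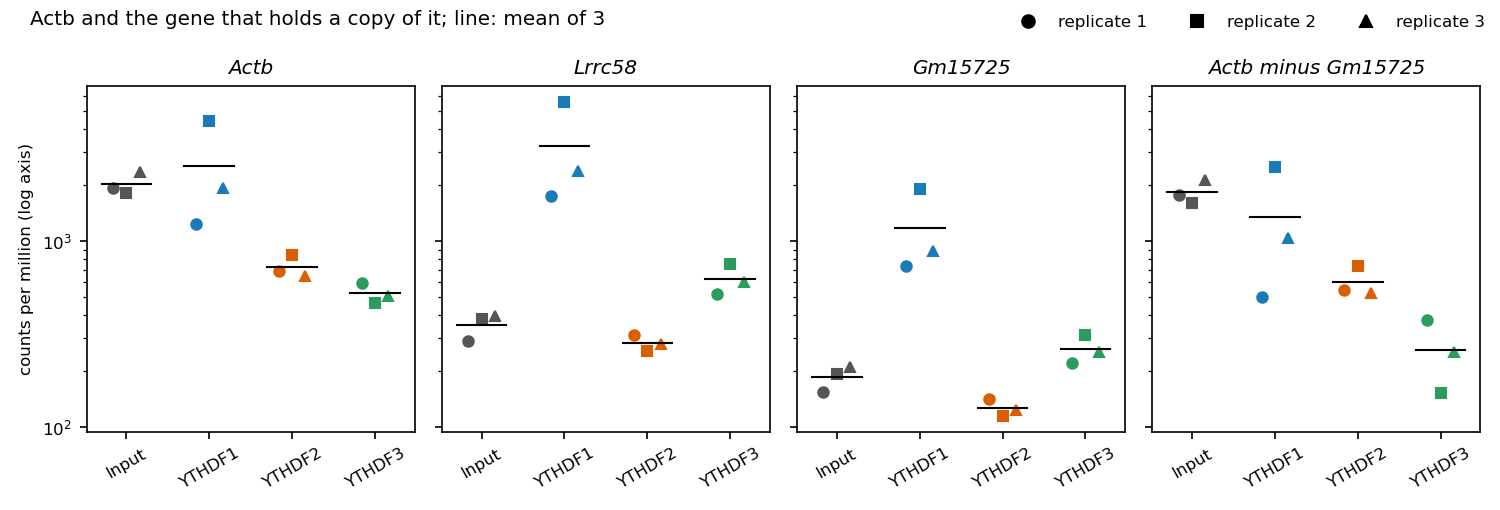
Level in CPM (vertical log axis shared by the panels) of Actb, of Lrrc58, of the Actb copy Gm15725 inside it, and of Actb after the count of Gm15725 was taken off, in each library with a line at the mean of 3. Lrrc58 lies at 291 to 393 CPM in Input and at 1746 to 5615 CPM with YTHDF1, and replicate 2 is the highest YTHDF1 library in each panel.

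Between the RIPs, where a call needed a 2-fold difference, the calls fell on Actb, Cfl2 and Pfn2. Actb was higher with YTHDF1 than with YTHDF2 by 1.80 ± 0.39 on the log2 scale (adjusted p = 0.00523) and than with YTHDF3 by 2.27 ± 0.39 (adjusted p = 0.00214). Cfl2 was higher with YTHDF1 by 3.32 ± 0.56 against YTHDF2 (adjusted p = 0.00129) and by 3.47 ± 0.56 against YTHDF3 (adjusted p = 0.00144). Thus 2 of 9 members were higher with YTHDF1 than with YTHDF2 (11.4% of all genes) and 2 of 9 than with YTHDF3 (10.8% of all genes).

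The libraries of the groups compared did not overlap for Actb or Cfl2. Without replicate 2 of YTHDF1_RIP, both Actb differences stayed past the threshold at 1.06 and 1.47, and those of Cfl2 at 2.06 and 2.15. With the reads of Gm15725 taken off, Actb was 1.17 ± 0.49 higher with YTHDF1 than with YTHDF2 (adjusted p = 0.105) and 2.37 ± 0.51 higher than with YTHDF3 (adjusted p = 0.00701). Without replicate 2 as well, these were 0.30 (adjusted p = 0.571) and 1.44 (adjusted p = 0.0199).

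Pfn2 was lower with YTHDF1 than with YTHDF2 by 1.02 ± 0.19 on the log2 scale (adjusted p = 0.00190), 1 of 9 members where 6.10% of all genes were lower. It was higher with YTHDF2 than with YTHDF3 by 1.14 ± 0.19 (adjusted p = 0.00734), 1 of 9 where 3.95% of all genes were higher. Both lay near the limit of 2-fold. Without YTHDF2_RIP replicate 1 they were -0.87 and 0.99, and without YTHDF1_RIP replicate 1 the first was -0.92, all under that limit. No member was lower with YTHDF1 than with YTHDF3 (3.63% of all genes) or with YTHDF2 than with YTHDF3 (1.16%). Pfn1 was higher by 1.16 ± 0.38 with YTHDF1 than with YTHDF3 at an adjusted p of 0.0502 and was not called. This Pfn1 difference was 0.37 without replicate 2 of YTHDF1_RIP (adjusted p = 0.344). It was 1.41 and 1.40 without replicates 1 and 3 (adjusted p = 0.0239 and 0.0303), and was called there.

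Ratios of counts within a family cancel the library size. The log2 ratio of Actg1 to Actb was -0.42 ± 0.10 in Input, -1.54 ± 0.37 with YTHDF1, -0.52 ± 0.18 with YTHDF2 and 0.19 ± 0.06 with YTHDF3 (SD, n = 3). It differed among the 4 groups by a two-sided exact permutation test (p = 0.000260, 0.000649 adjusted over the 5 ratios). All YTHDF1 libraries lay below Input and all YTHDF3 libraries above. With the reads of Gm15725 taken off Actb, the means were -0.28 ± 0.08, -0.53 ± 0.59, -0.24 ± 0.23 and 1.28 ± 0.41 in the same order (SD, n = 3; exact permutation p = 0.0121). In that setting the YTHDF1 libraries, at 0.03, -1.15 and -0.49, lay on both sides of Input, and the YTHDF3 libraries stayed above it. Taking reads off Actb can only raise this ratio, and raises it most where Gm15725 has the largest share of the Actb count.

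The log2 ratio of Cfl2 to Cfl1 rose from -3.21 ± 0.14 in Input to -0.57 ± 0.65 with YTHDF1, beside -3.63 ± 0.19 with YTHDF2 and -2.78 ± 0.08 with YTHDF3 (exact permutation p = 6.49e-05, 0.000325 adjusted). The ratio was 6.22 times the Input value with YTHDF1, and the groups did not overlap. For Dstn to Cfl1 the mean was -1.05 ± 0.29 in Input, -1.74 ± 0.10 with YTHDF1, -1.55 ± 0.19 with YTHDF2 and -0.66 ± 0.18 with YTHDF3 (exact permutation p = 0.000519, 0.000866 adjusted). All YTHDF1 and YTHDF2 libraries were below Input and all YTHDF3 libraries above it.

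For Pfn2 to Pfn1 the mean log2 ratio was 1.83 ± 0.51 in Input, 2.21 ± 0.83 with YTHDF1, 3.27 ± 0.59 with YTHDF2 and 3.08 ± 0.18 with YTHDF3, with an exact permutation p of 0.0472 and 0.0590 after adjustment. For Tmsb10 to Tmsb4x the exact permutation p was 0.147. A single RIP against Input, 3 libraries against 3, cannot go below an exact permutation p of 0.1, so those differences are given as values only.

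**Figure D4:**
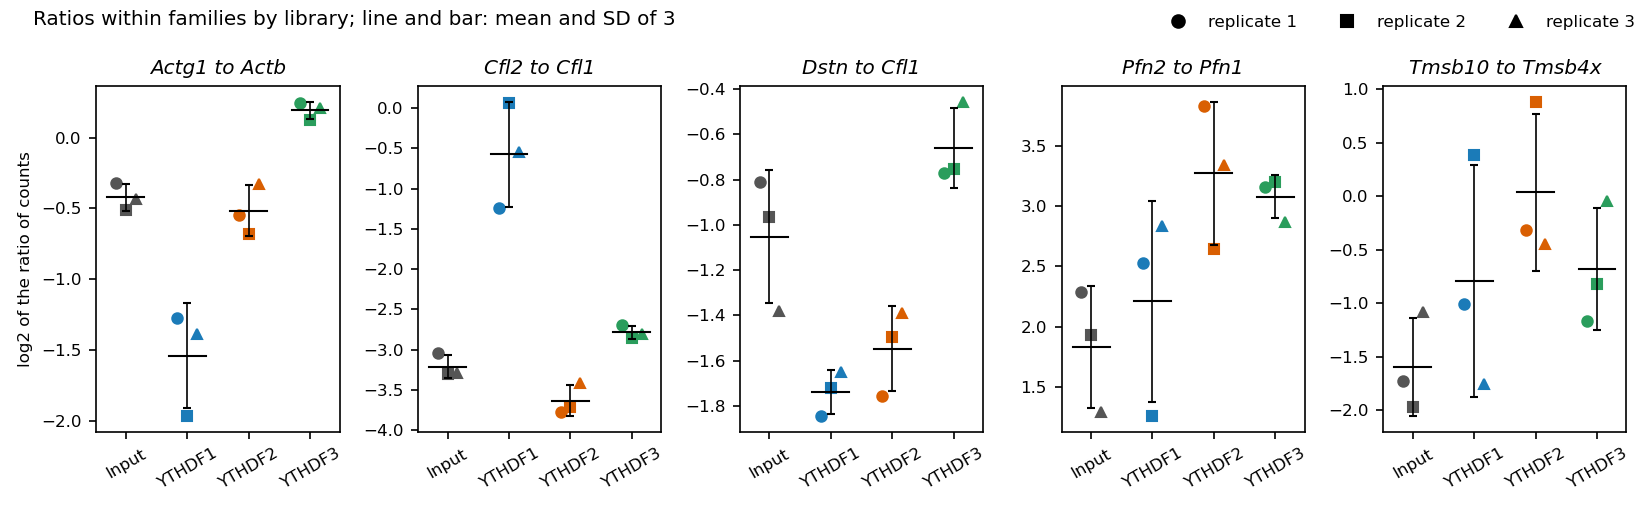
Log2 of the ratio of counts of 2 relatives (vertical axes, scaled separately) in each library, with lines and bars for the mean and SD of 3 and a marker for each replicate number. The ratio of Cfl2 to Cfl1 lies between -1.24 and 0.06 with YTHDF1 and between -3.77 and -2.69 in the other RIPs.

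The transcripts are short. The principal transcripts run from 690 bases (Tmsb10) to 2940 bases (Cfl2), beside a median of 3150 over 13448 transcripts, 1 for each matched protein-coding gene tested. A count on the transcript strand of GGACT, or the same letters with A or C as the last base, the core of the sequence in which m6A is often found, gave 6 in Actb, 5 in Actg1, 11 in Cfl1, 5 in Cfl2, 4 in Dstn, 4 in Pfn1, 9 in Pfn2, 1 in Tmsb4x and 4 in Tmsb10. The median over all these transcripts was 11, and 99.1% of them held at least 1. Per kilobase, the members ranged from 1.30 (Tmsb4x) to 5.80 (Tmsb10), beside a median of 3.63. Cfl2 had 1.70 per kilobase, and 7.89% of all transcripts had a density as low or lower. These are matches of letters, not sites, and the 3 forms do not overlap.

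Genes with a symbol of Gm and digits, which include copies of members, were left out of the comparison of patterns. For each member, the gene with the most similar pattern of log2 CPM over the 12 libraries was found among 10113 genes. It was Zc4h2 for Actb (Pearson's r = 0.976), Actg-ps1 for Actg1 (0.996), Eif4a1 for Cfl1 (0.989), Dusp19 for Cfl2 (0.987) and Ybx1 for Dstn (0.985). It was S100a10 for Pfn1 (0.991), Uqcrfs1 for Pfn2 (0.979), Nnat for Tmsb4x (0.997) and Rps24 for Tmsb10 (0.985). The libraries fall into 4 groups and share depth and preparation, and Actg-ps1 shares reads with Actg1, so these values describe the libraries only. The next were Ccni for Actb (0.974), Ola1 for Actg1 (0.986), Rpl36a-ps2 for Cfl1 (0.984), Sec22b for Cfl2 (0.980) and Ywhae for Dstn (0.983). They were Btf3-ps1 for Pfn1 (0.990), Mrps31 for Pfn2 (0.979), Rpsa-ps10 for Tmsb4x (0.995) and Rps24-ps3 for Tmsb10 (0.984). Among relatives, Tmsb4x and Tmsb10 had r = 0.895, Cfl1 and Dstn 0.862, Actb and Actg1 0.765, Pfn1 and Pfn2 0.728, Cfl1 and Cfl2 0.477, and Cfl2 and Dstn 0.217. Seen from the first of each pair, the partner was number 729, 709, 255, 1425, 2381 and 3880 in likeness.

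Other genes of the actin machinery moved in both directions, and differences between the lists were not tested. Of 85 listed regulators, 79 were tested, and 19, 8 and 12 were enriched and 24, 22 and 22 depleted with YTHDF1, YTHDF2 and YTHDF3, beside 27.2%, 15.7% and 16.4% of all genes enriched and 25.8%, 19.0% and 23.0% depleted. For YTHDF3 the enriched count was 25 when only its own libraries and Input were fitted with the replicate block. In that setting 6212 of all 17126 genes were enriched, beside 2817 in the main fit. Subunits of the Arp2/3 complex, which nucleates branched filaments, were never enriched (27.2%, 15.7% and 16.4% of all genes were). Depleted were 6, 5 and 7 of 9 (25.8%, 19.0% and 23.0% of all genes). Arpc3 fell by 2.42 ± 0.29 on the log2 scale with YTHDF3 (adjusted p = 0.000105), and Arpc4 by 2.07 ± 0.23 with YTHDF1 (adjusted p = 3.29e-05) and by 2.06 ± 0.23 with YTHDF3 (adjusted p = 6.32e-05). Arpc5 fell by 1.93 ± 0.27 with YTHDF1 (adjusted p = 0.000162), and Arpc3 by 1.56 ± 0.29 with YTHDF2 (adjusted p = 0.00199). Of the 3 tropomyosins tested, which coat and stabilize filaments, 3, 0 and 2 were depleted with YTHDF1, YTHDF2 and YTHDF3 (25.8%, 19.0% and 23.0% of all genes). The WASP and WAVE list, activators of Arp2/3, had 3, 0 and 1 of 10 enriched and 3, 4 and 3 depleted, and the list of cofilin kinases, phosphatases and cofactors had 3, 2 and 3 of 14 enriched and 5, 4 and 3 depleted.

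Formins, which elongate unbranched filaments, were never depleted (25.8%, 19.0% and 23.0% of all genes were). Enriched were 5, 0 and 4 of 13 (27.2%, 15.7% and 16.4% of all genes). Daam1, a formin, rose by 2.46 ± 0.24 with YTHDF1 (adjusted p = 1.77e-05), as did the spine scaffold gene Ppp1r9a by 2.30 ± 0.19 (adjusted p = 6.44e-06). Flna, a filament crosslinker, rose by 1.29 ± 0.39 with YTHDF2 (adjusted p = 0.0247), a call lost with the length trend removed (0.95, adjusted p = 0.101). Ssh1, a phosphatase that activates cofilin, rose by 1.15 ± 0.16 with YTHDF3 (adjusted p = 0.000222), and Cap1, a cofilin cofactor, fell by 1.62 ± 0.20 with YTHDF2 (adjusted p = 0.000354). The median exonic length was 2762 bases in the Arp2/3 list and 6339 bases in the formin list. With the trend of each library with transcript length removed, 11, 5 and 7 regulators were enriched. Of all 17126 genes, 3799, 2220 and 2609 were enriched in that setting, beside 4662, 2693 and 2817 in the main fit.

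**Figure D5:**
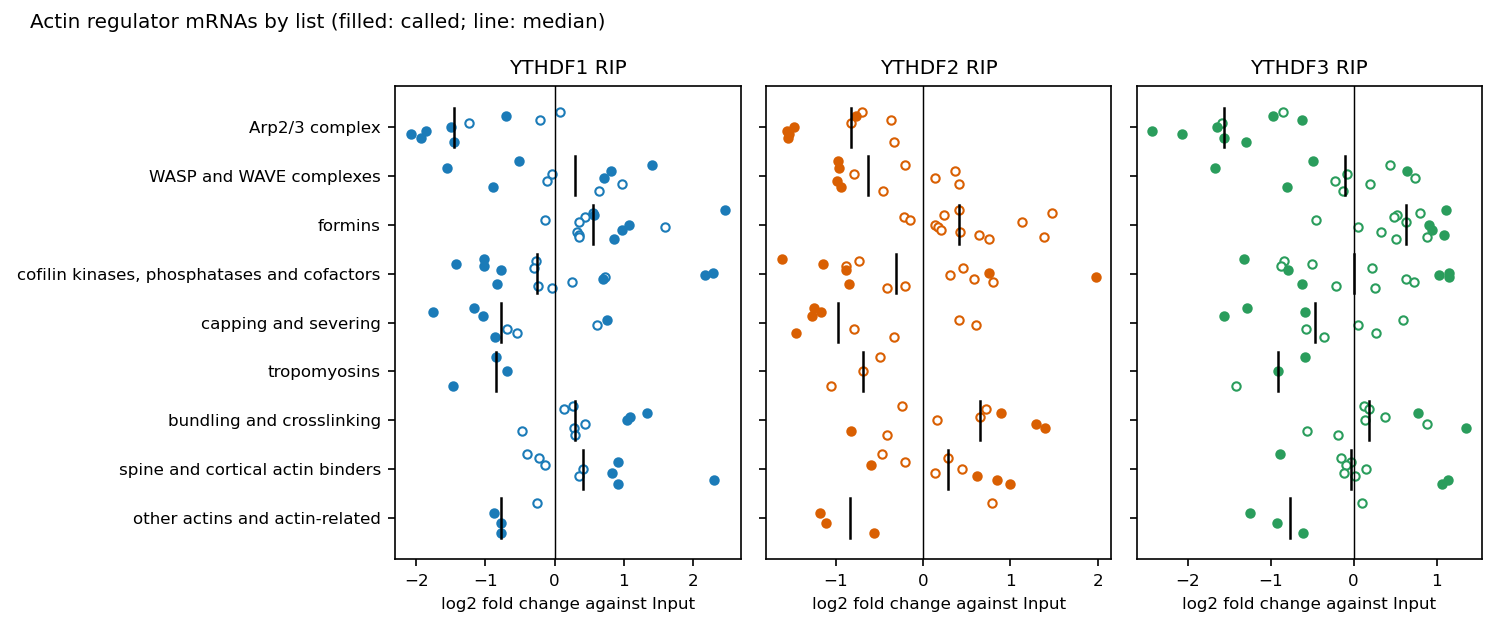
Log2 fold change against Input (horizontal axes) of the 79 tested actin regulators in 9 lists, 1 panel for each RIP, filled where called and with a line at the median of the list. The Arp2/3 medians are -1.46, -0.82 and -1.57, and the formin medians are 0.56, 0.41 and 0.63.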

How the data were processed

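RIP-seq was measured in 12 libraries, 3 in each of 4 groups taken from the sample titles. The authors extracted UMIs with UMI-tools 1.1.1, trimmed with cutadapt 3.4, aligned to mm10 with STAR 2.7.7a and counted with featureCounts 2.0.1 on Ensembl release 97, per the file headers with strand and with every alignment of a read counted for every gene it met. The deposited values used are raw counts per gene. The authors' tables also hold a mean signal (size-factor scaled counts), and log2 fold changes, errors, statistics, p-values and weights of their own comparisons. None was used, and only identifiers, symbols and biotypes were read.

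Genes averaging 10 or more normalized counts were kept, TMM factors were computed over them, and all 4 groups entered 1 quasi-likelihood model in edgeR 4.0.16 (R 4.3.3). This order of filter and TMM came from an earlier analysis of these data, where call counts under the other order had been seen. Members and lists were likewise chosen with earlier results of these data known. Named regulators are the 2 highest and 2 lowest called per RIP at a mean count of at least 100. A regulator that this rule also selects is not reported here. Genes named for likeness are the 2 with the highest Pearson correlation of log2 CPM to each member. They needed a symbol, other than Gm and digits, and a mean count of at least 100, as did the genes ranked. Ratios used a pseudocount of 0.5 and all 369600 assignments of libraries. P-values rest on the spread between libraries, which edgeR estimates with information shared over genes and groups. The main tests treat libraries as independent, although each lysate was split among the RIPs.

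The code was tested on simulated data with a spread near the real one. The first 2 pass marks set for that test, both on the share of changed genes recovered, were missed. Estimates, errors and null p-values were then checked in their place, with recovery at a smaller spread, and these held. At the real spread most changes of moderate size were missed.

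The study split each lysate among the RIPs. Deviations of same-numbered libraries from their group means correlated at 0.53 to 0.83 between Input and YTHDF3_RIP but at -0.32 to 0.09 between Input and YTHDF1_RIP and at -0.32 to 0.18 between Input and YTHDF2_RIP. Between RIPs they correlated at 0.06 to 0.54 (YTHDF1 and YTHDF2), -0.35 to 0.11 (YTHDF1 and YTHDF3) and -0.35 to 0.17 (YTHDF2 and YTHDF3). With every pair required to exceed 0.1, the number was taken to pair Input and YTHDF3_RIP and no other of these groups. Libraries with different numbers correlated at -0.28 to 0.47 between Input and YTHDF1_RIP and at -0.33 to 0.56 between Input and YTHDF2_RIP. In both cases the highest value was that of RIP replicate 2 with Input replicate 3. Whether those libraries came from 1 lysate was not tested, so the replicate block may join libraries of different lysates. Transcripts were GENCODE M21 (GRCm38). Alternatives were DESeq2 1.42.0, other scalings and filters, a replicate block, removal of length trends and leaving out each library.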

Additional observations from a re-analysis of the deposited data

Results flagged for a closer look

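The 6 differences between RIPs called in these mRNAs passed the test of the difference itself (edgeR's quasi-likelihood test), and each is a log2 difference. Actb was 1.80 higher with YTHDF1 than with YTHDF2 and 2.27 higher than with YTHDF3. Cfl2 was 3.32 and 3.47 higher with YTHDF1 than with YTHDF2 and YTHDF3. Pfn2 was lower with YTHDF1 than with YTHDF2 (-1.02) and higher with YTHDF2 than with YTHDF3 (1.14). For Actb, Lrrc58, which holds a copy of Actb, was itself 3.52 higher with YTHDF1 than with YTHDF2, and its part in the Actb difference was not tested. No group had the 4 libraries that a search for outlying libraries needs.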

How the results depend on the processing

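Most values kept their direction and their side of the threshold, but counts near a limit did not, and except where libraries were left out the causes were not tested. Actb with YTHDF1 against Input turned to -0.14 with library size alone, and ranged from -0.43 to 0.65 when each library was left out. It turned to -0.45 without the reads of Gm15725, a setting chosen after seeing the data that could only lower it. Library size alone moved the median of all genes by -0.40, 0.07 and 0.33 on the log2 scale for YTHDF1, YTHDF2 and YTHDF3. Members enriched with YTHDF1 numbered 0 when YTHDF1_RIP and Input were fitted alone, without or with the replicate block, and 0 to 1 when a library was left out.

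Regulators enriched with YTHDF1 (19) numbered 9 with library size alone, 11 with the length trend removed and 12 with the replicate block added to it, 11 and 7 with that RIP and Input alone without and with the block, and 12 to 19 when a library was left out. For YTHDF2 (8) the number was 5 with the length trend removed. For YTHDF3 (12) it was 23 with library size alone, 7 with the length trend removed and 4 with the block added. It was 25 with that RIP and Input alone in the block, and the depleted number (22) was 14 with library size alone. Over all 17126 genes the numbers moved as well. In the same settings and order, apart from leaving out libraries, those enriched with YTHDF1 (4662) numbered 3087, 3799, 3663, 3414 and 2393. Those with YTHDF2 (2693) numbered 2220. Those with YTHDF3 (2817) numbered 4822, 2609, 2589 and 6212, and those depleted with YTHDF3 (3940) numbered 3031.

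Members lower with YTHDF1 than with YTHDF2 (1) numbered 0 with TMM before the filter and with no filter. They also numbered 0 with the length trend removed, without or with the block, and 0 to 2 when a library was left out. The 2 came without replicate 2 of YTHDF1_RIP, where Tmsb10 was called beside Pfn2 (-2.05, adjusted p = 0.0263 for Tmsb10). Members higher with YTHDF2 than with YTHDF3 (1) numbered 0 with library size alone and with TMM before the filter, and 0 to 1 when a library was left out. Members higher with YTHDF1 than with YTHDF3 ranged from 2 to 5. The exact permutation p for Pfn2 to Pfn1 was 0.0677 within the replicate block and 0.0130 to 0.103 when a library was left out, and that for Tmsb10 to Tmsb4x was 0.0436 to 0.316. With the replicate block over all libraries, members depleted with YTHDF2 numbered 8 in place of 7, with Tmsb10 gained (-2.50, adjusted p = 0.0453), although the number was not taken to pair those libraries.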
